A study of Mus musculus with 672 samples.

Results

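The cells described here were 70 mesenchymal cells of the mouse embryonic pancreas at embryonic stage E15.25 (days of gestation), taken from 261 kept cells of that age. They were selected by measured levels: at least 1000 CPM (reads per gene scaled to a common library total) of Col3a1, a fibrillar collagen gene, more Col3a1 than Epcam, an epithelial adhesion gene, and under 30 CPM of Upk3b, a marker of mesothelium. The series comprised 672 single cells of strain C57BL/6, sorted after antibody staining at 1 cell per well into 7 plates of 96 wells and sequenced from full-length cDNA. Cells needed 100000 or more reads on genes, 1500 or more detected genes and no more than 20% mitochondrial reads, and 601 met these limits. The E15.25 plates held cells from the tip of bud 1, the tip of bud 2 and the trunk of bud 2, called tip 1, tip 2 and trunk 2 here. The same selection found 136 cells in the 4 plates of E13.25 (44, 53, 19 and 20 in plates 1 to 4), which served as the comparison of ages.

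The plate was the unit of every test, so n was 3 for E15.25 (2 tip plates and 1 trunk plate) and 4 for E13.25. Tip 2 and trunk 2 carried the same bud number, and nothing in the labels ties each plate to its own embryo, so p-values measured only how far plates differ, a difference that may be technical. The E13.25 plates had no region label, so age and region cannot be told apart in the comparison of ages. The titles of plate 4 carried a mouse number that those of plates 1 to 3 lacked. The antibodies and gates of the sort were not given in the sources used here, and a protocol given for cells of E15.25 mentions embryos of E13.25. Ages were taken from the age labels.

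The pancreatic mesenchyme is the connective tissue that surrounds and separates the branching epithelium. It secretes growth factors for the epithelial progenitors, lays down fibrillar collagens, proteoglycans and laminins, and holds forerunners of fibroblasts, of the contractile mural cells of vessels and of stellate cells. At this stage the epithelium itself separates into acinar tips and a trunk from which duct and endocrine cells arise.

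Mesenchyme by this selection made up 25 of 87 kept cells in tip 1 (28.7%, exact 95% binomial interval 19.5 to 39.4%). It made up 19 of 85 in tip 2 (22.4%, 14.03 to 32.7%) and 26 of 89 in trunk 2 (29.2%, 20.1 to 39.8%). The 3 intervals overlapped, and the unknown sort gates can set these shares. In the E13.25 plates the shares were 50%, 66.2%, 22.1% and 23.3%, so the E15.25 shares lay within the range of the younger plates.

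Col3a1 chose the cells, so its level is given as a description. In tip 1 it ran from 2041 to 20946 CPM with a median of 5902. In tip 2 it ran from 1689 to 22554 CPM with a median of 8150, and in trunk 2 from 1174 to 13183 CPM with a median of 7439. The other kept cells of the same plates had medians of 30.6, 50.1 and 57.5 CPM. Few cells lay near the threshold: those just inside it had 1174 CPM (trunk 2), 1689 CPM (tip 2) and 1771 CPM (trunk 2), and those just outside had 774 CPM (tip 2), 725 CPM (trunk 2) and 527 CPM (tip 2). No cell was left out by the Epcam condition and 4 were left out by Upk3b. These 4 cells had 4486, 5796 and 5969 CPM of Col3a1 in tip 2 and 5447 CPM in trunk 2. Upk3b in them was 707, 279, 150 and 1372 CPM in that order, and the members' highest Upk3b was 3.48 CPM. Epcam in the members had medians of 15.17, 26.6 and 29.4 CPM in tip 1, tip 2 and trunk 2, with highest values of 761, 108 and 295 CPM.

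**Figure D1:**
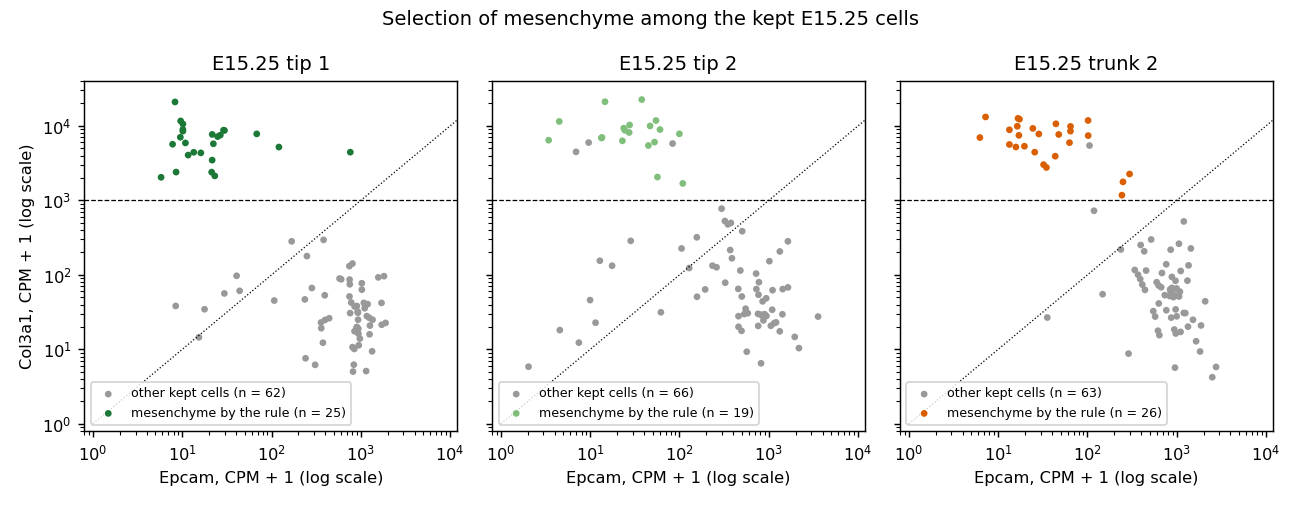
Each point is a kept E15.25 cell, with Epcam on the horizontal and Col3a1 on the vertical axis (CPM + 1, log scales), coloured where selected; the dashed line marks 1000 CPM of Col3a1 and the dotted line equal levels. Members reach from 1174 to 22554 CPM of Col3a1. Only 3 unselected cells that met the Epcam and Upk3b conditions lie between 500 and 1000 CPM of Col3a1.

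The members had between 107285 and 4174994 reads on genes per cell, with plate medians of 855724, 585700 and 750957 reads and of 8401, 8781 and 9011 genes with a read (tip 1, tip 2, trunk 2). Mitochondrial genes took a median of 4.44%, 4.49% and 5.08% of members' reads, below the 5.29%, 5.90% and 6.25% of the other kept cells. Unaligned reads stood apart by plate: the members' median share was 27.7%, 33.4%, 26.5% and 48.8% over the 4 plates of E13.25, and 45.9%, 50.7% and 50.04% over the 3 of E15.25. Among kept cells no pair had identical counts.

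Of the 5 markers of the label that did not choose the cells, 3 were read in nearly all members and the other two in fewer. Col1a1, the alpha 1 chain of type I collagen, exceeded 10 CPM in 70 of 70 members, as did Sparc, a collagen-binding glycoprotein. Dcn (decorin, a small proteoglycan that binds collagen fibrils) did so in 69 members. Acta2, the smooth muscle actin, exceeded 10 CPM in 38 members, 11 in tip 1, 12 in tip 2 and 15 in trunk 2. Mgp, a matrix protein that limits calcification, did so in only 17. Reads of matrix genes were also seen at low level outside the class: among the 191 other kept cells, Col1a1 exceeded 10 CPM in 161 (84.3%) and Dcn in 105 (55%), while Pdgfra, a growth factor receptor of mesenchyme, did so in 7 (3.66%). A share of cells over 10 CPM is therefore read here beside the level.

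Against the other kept E15.25 cells, 1033 of 15662 genes (6.6%) were at least 2-fold higher in the members in all 3 plates after adding 5 CPM. This contrast is the one that chose the cells, and it was not tested. The gene with the highest ratio in its lowest plate was Sparcl1, a secreted relative of Sparc. Its level in the members was 2069, 2159 and 1660 CPM in tip 1, tip 2 and trunk 2, against 9.21, 12.1 and 9.58 CPM in the other cells. Lum (lumican, a fibril-organizing proteoglycan) had 1176, 1619 and 1452 CPM against 4.79, 11.7 and 8.53 CPM. These are ratios of 114-fold or more for Sparcl1 and 97.4-fold or more for Lum. Among the 15 genes with the highest such ratios 8 were collagens, proteoglycans, other matrix proteins or a matrix enzyme: Lum, Col6a1, Col6a2, Bgn, Col1a2, Col1a1, Postn and Lox. Mfap4, a microfibril-associated protein, was among them too. The others were Sparcl1, Pcdh18 (a protocadherin), Islr, Igfbp4 (an IGF-binding protein), Akap12 (a kinase-anchoring protein) and Rgs5, a regulator of G-protein signalling known from pericytes. Rgs5 stood at 326, 338 and 399 CPM in the members and at 1.49, 2.19 and 2.66 CPM in the other cells.

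By role, 14 of 18 collagens other than Col3a1, 23 of 30 matrix glycoproteins and proteoglycans and 16 of 16 collagen-processing enzymes were at least 2-fold above the other cells in all 3 plates. The same held for 12 of 14 matrix proteases and inhibitors and 22 of 32 transcription factors linked to mesenchyme. Prrx1, a homeobox factor of connective tissue, stood at 250, 199 and 228 CPM in the members against at most 4.38 CPM in the other cells. Osr1, a zinc finger factor of embryonic connective tissue, stood at 269, 312 and 327 CPM, and Hic1, a repressor marking mesenchymal progenitors, at 204, 205 and 208 CPM. The 3 plates lay close together for these genes. Foxf1, a factor of gut mesenchyme that was among the markers looked for, was listed at 0, 0 and 0.0398 CPM. Of the collagens, Col2a1 and Col9a3 went the other way, with 1.42 to 2.58 CPM of Col2a1 in the members against 39.8 to 70.01 CPM in the other cells.

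Of 42 secreted signals, 17 were above the other cells by the same measure. Ptn (pleiotrophin, a heparin-binding growth factor) stood at 2604, 2944 and 2493 CPM against 251, 162 and 274 CPM in the other cells. Igf2 stood at 1443, 1454 and 1419 CPM, Cxcl12 (a chemokine) at 659, 738 and 919 CPM and Slit2 (a guidance ligand) at 305, 277 and 534 CPM. Fgf10, the mesenchymal FGF required for growth of the early pancreatic bud, was low and uneven at 8.88, 60.3 and 3.82 CPM and exceeded 10 CPM in 11 members. Wnt2 and Rspo2 had no read in any of the 70 members. Among receptors, Pdgfra stood at 220, 169 and 209 CPM and Pdgfrb at 491, 465 and 299 CPM, both at least 12.2-fold above the other cells.

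Several imprinted growth genes stood far above the other cells. Cdkn1c, a cell cycle inhibitor, stood at 3266, 4405 and 2630 CPM against 216, 175 and 191 CPM in the other cells. Plagl1, a zinc finger regulator of other imprinted genes, stood at 1883, 3202 and 2824 CPM against 91.6, 101 and 91.1 CPM. Mest stood at 4907, 4733 and 3375 CPM against 162, 211 and 160 CPM. In all, 10 of the 16 imprinted growth genes were at least 2-fold above the other cells in every plate.

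Cells with over 100 CPM of both Mki67 and Top2a, genes of dividing cells, numbered 4 of 25 members in tip 1 (16%), 2 of 19 in tip 2 (10.5%) and 7 of 26 in trunk 2 (26.9%). Among the other kept cells the shares were 25.8%, 40.9% and 34.9%. The members' share was the lower one in each of the 3 plates, and the part of depth was not tested: members and other cells had median depths of 855724 and 942490, 585700 and 940820, and 750957 and 792707 reads in the 3 plates.

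The comparison of ages asked how mesenchyme selected in one way at both ages differed. The 4 E13.25 plate sums were set against the 3 of E15.25 with edgeR, leaving Col3a1, Epcam and Upk3b aside, since they chose the cells. Of 15662 genes, 74 were higher at E15.25 (0.472%) and 35 lower (0.223%) at a Benjamini-Hochberg adjusted p under 0.05. The genes that rose included matrix genes such as Dcn, Postn, Lox and the type VI collagens, and also digestive enzymes of acinar cells. Hmga2, Sox11 and Tgfbi were among the genes that fell. The number of calls leaned on single plates: it was 3 without E13.25 plate 3 and between 29 and 60 without any other single plate. With a term for the plates of low unaligned share (E13.25 plates 1 to 3), no gene passed, and 1910 genes had an unadjusted p under 0.05. The changes themselves kept their direction with this term in the 39 genes named by the age comparison: Col4a1 had a log2 change of 1.75 with it and 1.86 without, Bgn 2.08 and 2.15, and Dcn 4.61 and 3.70. Among members, only E13.25 plate 4 had an unaligned share near that of the E15.25 plates, so this share and age can hardly be told apart. The term grouped plates by the median share of all their kept cells. In E13.25 plate 1 that share differed within the plate, with medians of 27.7% in members and 46.8% in other kept cells.

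Among the collagens, 3 of 18 tested rose (Col6a1, Col6a2 and Col4a1) and none fell. The median log2 change of the 18 was 1.21, beside -0.05 over all genes tested, and 8 of them were higher in every E15.25 plate than in every E13.25 plate, an order seen in 6.23% of all genes. Col6a2, a chain of the microfibrillar type VI collagen, was 597, 720, 767 and 389 CPM in E13.25 plates 1 to 4 and 1994, 2120 and 1857 CPM in tip 1, tip 2 and trunk 2. The ages did not overlap, and the means were 618 ± 169 (SD, n = 4) and 1990 ± 131 (SD, n = 3), a log2 change of 1.91 (SE 0.22, adjusted p = 0.0152, edgeR). Its partner chain Col6a1 was 536, 657, 405 and 497 CPM at E13.25, against 1413, 1883 and 1272 CPM at E15.25, a log2 change of 1.76 (SE 0.22, adjusted p = 0.0197, edgeR). The genes of these 2 chains lie near each other on mouse chromosome 10 (mm10), Col6a2 at positions 76595756 to 76623630 and Col6a1 at 76708792 to 76726044, by the RefSeq annotation of that assembly. Col4a1, a chain of basement membrane collagen, was 268, 189, 173 and 215 CPM at E13.25, against 746, 547 and 703 CPM at E15.25, a log2 change of 1.86 (SE 0.19, adjusted p = 0.0123, edgeR). The type I chains did not pass. Col1a1 was 2247, 4001, 2897 and 2948 CPM against 4462, 6132 and 4584 CPM, with a log2 change of 0.96 and an adjusted p of 0.0844 in edgeR, although the ages did not overlap. The plate values of Col3a1, which chose the cells, were 3187, 3578, 2874 and 2827 CPM against 6672, 8877 and 7020 CPM.

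Of 30 matrix glycoproteins and proteoglycans 5 rose, Sparc, Dcn, Bgn, Postn and Lama4, and Gpc3 fell. Their median log2 change was 1.37, and 15 of the 30 were above all E13.25 plates in every E15.25 plate. Dcn had the largest change of the 5. It was 239, 280, 136 and 93.2 CPM in E13.25 plates 1 to 4 and 1430, 2244 and 2514 CPM in the E15.25 plates, and it exceeded 10 CPM in 61 of 136 E13.25 cells (44.9%) and in 69 of 70 at E15.25. Its lowest E15.25 plate was thus several times its highest E13.25 plate, with a log2 change of 3.70 (SE 0.40, adjusted p = 0.0123, edgeR). Postn (periostin, which links collagen and fibronectin) was 218, 242, 123 and 115 CPM and then 745, 830 and 887 CPM, a log2 change of 2.46 (SE 0.28, adjusted p = 0.0152, edgeR). Bgn (biglycan, a relative of decorin) was 179, 286, 222 and 228 CPM and then 716, 709 and 1213 CPM, and rose by 2.15 on the log2 scale. For these genes the ages lay apart. Lama4 (a laminin chain) was 43.3, 83.5, 54.2 and 33.9 CPM and then 332, 354 and 180 CPM, and rose by 2.65. Sparc was 1981, 2433, 1936 and 2298 CPM at E13.25, against 4676, 5802 and 4464 CPM at E15.25, and rose by 1.42. Here too the ages did not overlap.

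Lum and Ogn (osteoglycin), small proteoglycans of the family of Dcn, missed the threshold. Lum was 89.9, 276, 319 and 47.3 CPM at E13.25, against 1176, 1619 and 1452 CPM at E15.25, with a log2 change of 3.18 and an adjusted p of 0.0549 in edgeR. It exceeded 10 CPM in 29 of 136 E13.25 cells (21.3%) and in 64 of 70 at E15.25. Ogn was 53.2, 82.8, 19.97 and 25.3 CPM and then 170, 444 and 313 CPM, with a log2 change of 3.02 and an adjusted p of 0.0503 in edgeR. In neither gene did the ages overlap, but the E13.25 plates spread widely. Lum lies near Dcn on chromosome 10 (mm10), at positions 97565501 to 97572703 and 97479500 to 97518163.

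Gpc3, a glypican that restrains growth, was the one matrix gene of the list that fell. It was 2231, 1966, 2304 and 2085 CPM at E13.25, against 1127, 993 and 1048 CPM at E15.25, a log2 change of -0.82 (SE 0.13, adjusted p = 0.0351, edgeR). It still exceeded 10 CPM in 70 of 70 members.

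Of 16 collagen-processing enzymes, Lox and Ctsk rose and none fell. Lox (lysyl oxidase, which crosslinks collagen and elastin) was 80.6, 101, 45.3 and 35.6 CPM and then 395, 654 and 539 CPM, a log2 change of 3.25 (SE 0.39, adjusted p = 0.0152, edgeR). Ctsk (cathepsin K, a collagen-degrading protease) was 41.4, 38.01, 32.8 and 17.5 CPM and then 209, 112 and 92.2 CPM, a log2 change of 2.29 (SE 0.37, adjusted p = 0.0421, edgeR). The prolyl hydroxylase P4ha2 and the lysyl hydroxylase Plod2 had log2 changes of 1.94 and 1.93 without passing. The list's median was 1.07, and 10 of its 16 members were above all E13.25 plates in every E15.25 plate. None of the 14 matrix proteases and inhibitors passed, and their median log2 change was 0.62. Without single plates the calls ranged from 0 to 4 for the collagens, 0 to 5 for the glycoproteins and proteoglycans, and 0 to 1 for the processing enzymes.

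**Figure D2:**
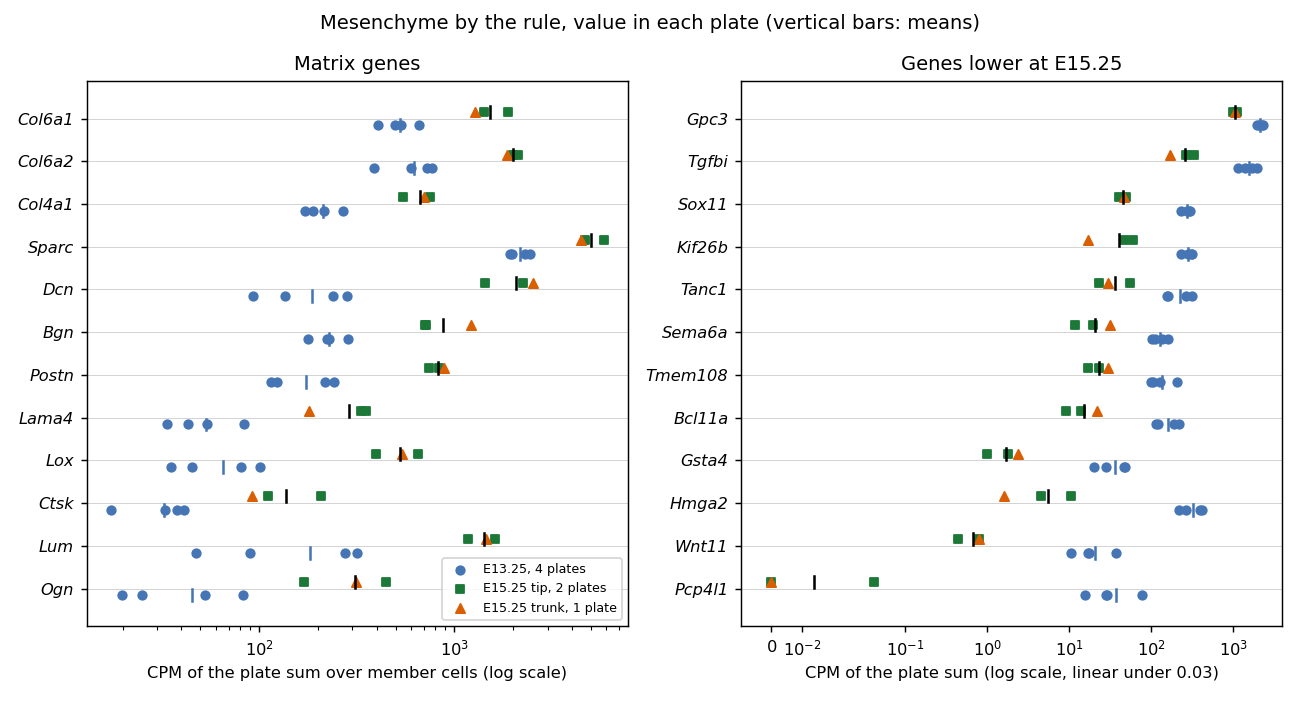
Each point is the CPM of a plate's summed mesenchyme cells (log axes, the right one linear under 0.03 CPM), for 4 E13.25 plates (circles), 2 E15.25 tip plates (squares) and 1 trunk plate (triangle), with bars at the means. Dcn, for example, lies from 93.2 to 280 CPM at the younger age and from 1430 to 2514 CPM at the older, and Hmga2 from 216 to 423 CPM and from 1.59 to 10.6 CPM.

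Genes outside the gene lists rose too. Itm2a, a membrane protein, was 3124, 2774, 2699 and 2591 CPM at E13.25, against 5570, 5883 and 4436 CPM at E15.25, a log2 change of 1.14 (adjusted p = 0.0175, edgeR). Gsn (gelsolin, which severs actin filaments) rose by 1.79 on the log2 scale and Ptger3, a prostaglandin E receptor, by 1.91. Thbs2 and Aspn, which encode matrix proteins, rose by 3.01 and 2.85. Kank4, a regulator of the actin cytoskeleton, had at most 0.268 CPM in any E13.25 plate and 25.2, 14.6 and 78.1 CPM at E15.25, but 44.7% of its E15.25 reads came from 1 cell. Such dominance by 1 cell touched several genes with the largest changes. In 8 of the 74 genes that were higher, over 50% of the E15.25 reads came from 1 cell: Elf3, Pcsk1, Scg3, Hhatl, St18, Hid1, Arsj and Tmem215.

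B2m, the light chain of class I antigen-presenting molecules, was 114, 108, 112 and 104 CPM at E13.25, against 221, 272 and 341 CPM at E15.25, a log2 change of 1.56 (adjusted p = 0.0234, edgeR). Irf1, a factor of the interferon response, was 41.8, 74.2, 63.8 and 28.6 CPM and then 206, 364 and 557 CPM, a log2 change of 3.08 (adjusted p = 0.0259, edgeR). They were the 2 of 11 tested genes of antigen presentation and interferon that rose. The heavy chains were low in the members: H2-K1 stood at 13.9, 2.40 and 26.7 CPM and H2-D1 at 3.14, 2.66 and 4.02 CPM, below the other cells of each plate, and neither passed. Ldha, a glycolytic enzyme, rose from 226, 229, 143 and 174 CPM to 637, 574 and 687 CPM (log2 change 1.92, adjusted p = 0.0123, edgeR). The other gene of the metallothionein, glycolysis and hypoxia list that passed, Mt2, reached only 6.53, 8.54 and 11.3 CPM beside 377, 230 and 350 CPM in the other cells.

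The gene with the steepest fall carried by many reads was Hmga2, a chromatin protein of embryonic and undifferentiated cells (chromosome 10, positions 120361268 to 120476469 in mm10). It was 216, 269, 397 and 423 CPM in E13.25 plates 1 to 4 and 10.6, 4.55 and 1.59 CPM in tip 1, tip 2 and trunk 2. Over 10 CPM were seen in 119 of 136 E13.25 cells and in 10 of 70 at E15.25. The log2 change was -5.70 (SE 0.69, adjusted p = 0.0156, edgeR). The other kept cells had 53.7, 46.5 and 39.7 CPM at E15.25, so that the members lay below them in each plate.

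Sox11, a transcription factor of embryonic progenitors, was 295, 230, 291 and 272 CPM and then 49.3, 40.7 and 46.7 CPM, a log2 change of -2.37 (SE 0.20, adjusted p = 0.00797, edgeR). Its plates were alike within each age. Tgfbi, a matrix protein induced by TGF-beta, was 1379, 1705, 1975 and 1139 CPM and then 329, 267 and 171 CPM, a log2 change of -2.39 (SE 0.28, adjusted p = 0.0152, edgeR). Kif26b, a kinesin family member, fell by 2.58 on the log2 scale, and Bcl11a, a zinc finger factor, by 3.21. Wnt11, a secreted Wnt ligand, was 17.2, 37.4, 17.5 and 10.6 CPM at E13.25, against 0.796, 0.443 and 0.795 CPM at E15.25, a log2 change of -4.71 (SE 0.80, adjusted p = 0.0471, edgeR). It was the only one of 37 tested signals to pass. Tanc1, Sema6a, Tmem108 and Gsta4 fell by 2.48, 2.43, 2.34 and 4.17. Snx31 had no read in the 70 members and was at least 525-fold lower than at E13.25, taking 3 reads over the E15.25 group as the floor. Pcp4l1 was lower by a ratio of 3112 over the pooled reads, with a 95% counting interval of 558 to 122912. In both genes few cells at E13.25 carried the reads, 14 and 26 of 136 with over 10 CPM.

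None of 29 tested transcription factors of the mesenchyme passed. Their median log2 change was -0.58, and 9 were lower in every E15.25 plate than in every E13.25 plate, beside 13.5% of all genes in that order. Nkx3-2, a homeobox factor of visceral mesenchyme, was 52.7, 55.7, 57.6 and 53.9 CPM at E13.25, against 25.5, 13.7 and 5.61 CPM at E15.25 (log2 change -1.69, adjusted p = 0.157, edgeR). Nr2f2 was 627, 449, 393 and 381 CPM and then 216, 99.3 and 219 CPM, with a log2 change of -1.18. Meis1, a partner of Hox proteins, had a log2 change of -0.97. Prrx1 and Tcf21 lay close to 0, at 0.02 and 0.10. Ebf1 was the other way, at 33.7, 58.4, 31.2 and 3.43 CPM and then 140, 137 and 125 CPM, with an adjusted p of 0.151 in edgeR.

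Other signals that did not pass lay in both directions. Of the 37 tested signals, 22 had a log2 change above 0, and the median was 0.47. In 4 of them every E15.25 plate lay above every E13.25 plate, beside 6.23% of all genes. In 7 every E15.25 plate lay below, beside 13.5% of all genes. The Wnt-related genes given next were all on the lower side. Wnt5a was 286, 283, 179 and 304 CPM at E13.25, against 141, 68.2 and 50.02 CPM at E15.25, and Sfrp1, a secreted Wnt antagonist, was 734, 1065, 1239 and 923 CPM and then 384, 507 and 397 CPM. In both the ages did not overlap. Axin2 and Lef1, targets and mediators of Wnt signalling, had values apart as well: Axin2 was 34.5, 18.3, 38.01 and 14.04 CPM and then 5.07, 4.36 and 6.998 CPM. Lef1 was 51.2, 64.5, 28.4 and 66.6 CPM and then 7.75, 0 and 1.47 CPM. The adjusted p-values of these 4 genes in edgeR were 0.108, 0.0862, 0.142 and 0.19. Of 16 tested receptors and Hedgehog or Wnt targets none passed, and the median log2 change was -0.25. In the retinoic acid pathway, Rdh10, which oxidizes retinol, was 464, 446, 478 and 318 CPM and then 56.9, 188 and 120 CPM without passing (adjusted p = 0.107, edgeR). The one of 13 that passed was Aldh1a1, which reached only 0.879, 1.96 and 1.99 CPM beside 62.5, 46.2 and 38.6 CPM in the other cells.

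Contractile and mural genes did not pass in either direction. None of 15 smooth muscle genes and none of 12 tested pericyte and stellate genes passed, with median log2 changes of 0.57 and 0.63. Acta2 was 263, 467, 239 and 231 CPM at E13.25, against 138, 1183 and 723 CPM at E15.25, so the ages overlapped (adjusted p = 0.299, edgeR). Rgs5 was 498, 331, 377 and 398 CPM and then 326, 338 and 399 CPM, a log2 change of 0.03. Reln (reelin, also known from stellate cells of the liver) was at most 2.79 CPM at E13.25, against 53.6, 77.6 and 48.1 CPM at E15.25, and exceeded 10 CPM in 69 of 70 members. The other kept cells of E15.25 had 33.2, 39.97 and 43.3 CPM of Reln, so it did not set the mesenchyme apart, and it did not pass (adjusted p = 0.0612, edgeR).

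The genes higher at E15.25 fell into 2 sets by where else they were read. Of the 74, 40 were higher in the members than in the other kept E15.25 cells in all 3 plates, 28 were lower in all 3, and 6 were mixed. Of the 35 that were lower with age, 16 were above the other cells, 8 below and 11 mixed. Of the 28 genes that rose while standing below the other cells, 12 belonged to the list of acinar enzymes and 2 to that of epithelium (Krt18 and Spp1). Those of metallothioneins and of retinoic acid held 1 each (Mt2 and Aldh1a1). The other 12 were in no list: Elf3, Rbpjl, Cckar, Anxa4, Aqp8, Hid1, St6galnac2, Serpina6, Ttr, Akr1c19, Amy2a5 and Amy2a3. The last 2 are amylase genes like the listed Amy2b, so the list's count does not cover every acinar gene among the 28. Ctrb1 (a chymotrypsinogen) had 4.83, 0.845, 4.18 and 6.06 CPM at E13.25, against 725, 615 and 638 CPM at E15.25, where the other cells had 45206, 20986 and 24152 CPM. Pnliprp1 and Clps, a pancreatic enzyme and a cofactor, exceeded 10 CPM in 70 of 70 members, as did Ctrb1. Krt18, a keratin of simple epithelia, rose from at most 2.05 CPM to 27.7, 41.4 and 69.1 CPM, where the other cells had 1162 to 1683 CPM.

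**Figure D3:**
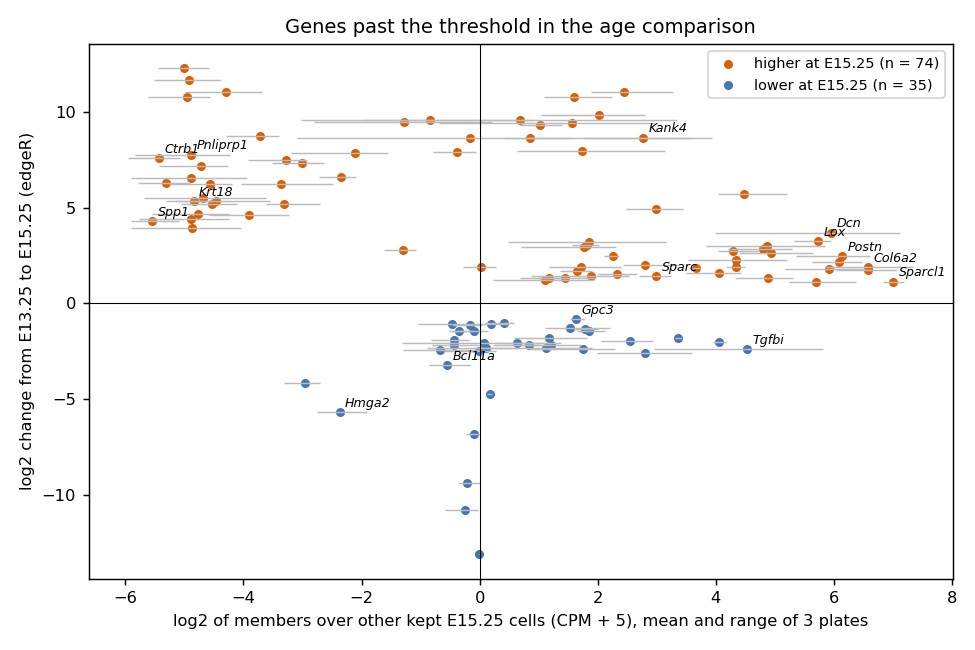
Each point is one of the 109 genes past the threshold, with the log2 ratio of members to other kept E15.25 cells on the horizontal axis (CPM + 5, mean and range of 3 plates) and the log2 change with age on the vertical axis. Among the 74 genes higher at E15.25, matrix genes such as Dcn and Lox lie to the right of 0 and Ctrb1, Pnliprp1 and Krt18 to the left.

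The marker list of acinar enzymes showed 12 of 20 tested genes higher at E15.25 in the mesenchyme, with a median log2 change of 6.86, or 6.41 with genes of no E13.25 read set at their lower bound. Its summed level was 48.9, 28.01, 143 and 109 CPM in E13.25 plates 1 to 4 and 2080, 2045 and 2572 CPM in tip 1, tip 2 and trunk 2. In the other kept cells it was 14402, 7589, 12017 and 10727 CPM and then 118908, 58855 and 67019 CPM. The members therefore held 0.340%, 0.369%, 1.19% and 1.01% of the other cells' level at E13.25 and 1.75%, 3.48% and 3.84% at E15.25. The trypsinogens and amylases of this list are near-identical copies whose counts can hold reads of one another. Epithelial genes showed 2 of 15 higher, with 14 of the 15 above all E13.25 plates in every E15.25 plate, and the members' summed level went from 0.264 to 0.425% of the other cells' to between 3.09 and 4.68%. Erythroid genes, globins among them, went from 0.175 to 0.318% of the other cells' level to 1.30, 3.89 and 1.51%, with none of 7 passing. In these 3 lists the members' share of the other cells' level was higher in every E15.25 plate than in every E13.25 plate. The endothelial list had the same order. The endocrine shares overlapped, with 4.93, 5.91, 7.92 and 3.81% at E13.25 and 3.61, 5.81 and 292% at E15.25. Shares of the mesothelial, leukocyte and neural lists overlapped between ages too. Dcn and Col6a2 stood 15.9-fold or more above the other cells in each plate, in the contrast that chose the cells. Whether the matrix genes' changes owe anything to reads of other cell classes was not tested.

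**Figure D4:**
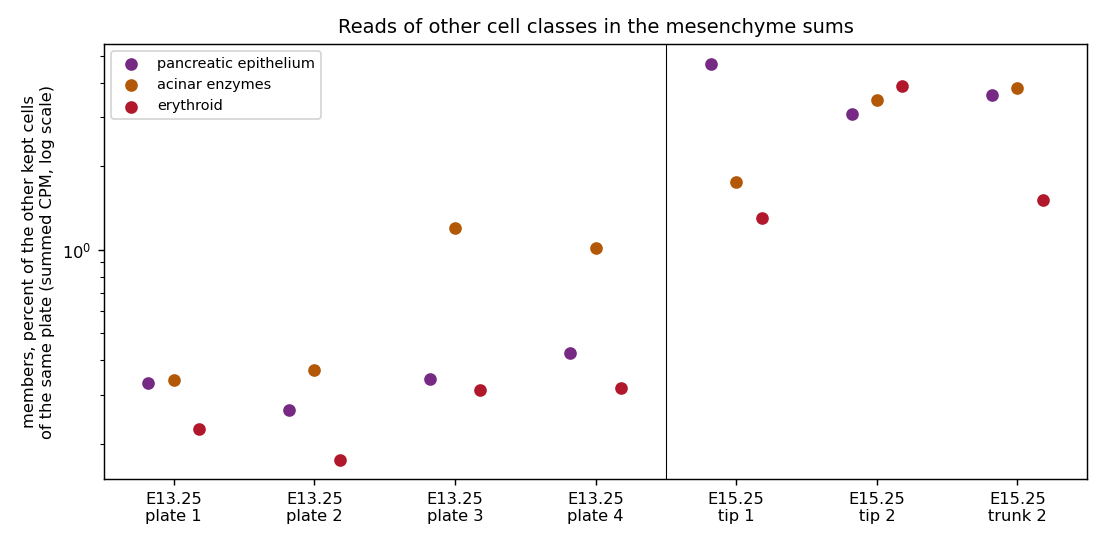
For each plate, the summed CPM of 3 gene lists (epithelium, acinar enzymes, erythroid) in the mesenchyme is shown as a percent of that in the other kept cells (log scale). All 3 lists lie from 0.175 to 1.19% at the younger age and from 1.30 to 4.68% at the older.

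Markers of other classes differed in level. Endothelial genes summed to 37.7, 33.6 and 39.8 CPM in the members of tip 1, tip 2 and trunk 2, and Cdh5, Cldn5 and Sox17 had no read in any of them. Leukocyte genes summed to 17.3, 23.7 and 9.22 CPM, with 7 of 12 genes at 0 reads, among them Tyrobp and Fcer1g. Mesothelial genes other than Upk3b summed to 50.8, 123 and 149 CPM. Genes of neural crest, glia and neurons summed to 93.7, 187 and 180 CPM, with no gene of the 12 at 0 reads, beside 143, 168 and 201 CPM in the other cells. Erythroid genes summed to 441, 3969 and 324 CPM, highest in tip 2, beside 34014, 102095 and 21426 CPM in the other cells. Endocrine genes summed to 696 and 87.6 CPM in the tips and to 18099 CPM in trunk 2, where the other cells had 6204 CPM. That value rested on 1 trunk 2 cell with 67401 CPM of Ins2 and 9556 CPM of Iapp, which also had 1771 CPM of Col3a1, 249 CPM of Epcam, 2150 CPM of Acta2 and 912 CPM of Mgp. A further trunk 2 member had 5043 CPM of Ins2 with 1174 CPM of Col3a1. Both were among the 3 members nearest to the Col3a1 threshold, and both were absent from the selection that asked for at least 10 times as much Col3a1 as Epcam, under which 131 genes passed the comparison of ages.

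Age changes were also compared between the mesenchyme and all other kept cells of the same plates, with a term for each plate. Of 21022 genes, 26 (0.124%) changed more upward in the mesenchyme and 6 (0.0285%) less upward or more downward, at an adjusted p under 0.05 in edgeR. Ogn had means of 45.3 CPM at E13.25, against 309 CPM at E15.25 in the members and of 18.3 and 3.70 CPM in the other cells. The difference of its log2 changes was 4.93 (adjusted p = 0.0329, edgeR). Mfap4 had means of 596 and 851 CPM in the members and of 119 and 9.08 CPM in the other cells, a difference of 3.94 (adjusted p = 0.0329, edgeR). Mest had means of 2470 and 4338 CPM in the members and of 727 and 178 CPM in the other cells, a difference of 2.47 (adjusted p = 0.0329, edgeR). Ndn, a further imprinted gene, and Igfbp4 had differences of 2.63 and 2.95, both with an adjusted p of 0.0361 in edgeR.

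Downward, Hmga2 differed by -4.50 (adjusted p = 0.0329, edgeR), with 189 ± 43.5 CPM (SD, n = 4) and 46.7 ± 7.01 CPM (SD, n = 3) in the other cells. Fosb, an immediate early gene, had means of 517 and 165 CPM in the members and of 70.3 and 198 CPM in the other cells, a difference of -3.41 (adjusted p = 0.0329, edgeR). Others among the 26 stood below the other cells: St6galnac2, Spint1, Foxa2, Akr1c19, Ttr, Krt8 and Esrp1 had differences between 3.87 and 7.86. In the epithelial list all 15 tested genes had a difference above 0, with a median of 3.88 beside -0.08 over all genes. The members' sum of that list was 24.7, 23.5, 34.02 and 34.8 CPM in E13.25 plates 1 to 4. At E15.25 it was 389, 320 and 628 CPM, beside 8314, 10327 and 17341 CPM in the other cells. The other cells changed in makeup as well. At E13.25 they included 7, 7, 6 and 2 cells with at least 30 CPM of Upk3b and at least 100 CPM of Col3a1, against 0, 3 and 1 at E15.25, and the part of this in the differences was not tested. The 32 calls depended on single plates, with 0 or 1 left without any one plate other than tip 2 and 53 without tip 2.

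Mesenchyme of the tip and trunk plates was compared next. No gene of 19896 passed between the 2 tip plates and the trunk plate (0%) in edgeR, where 1014 had an unadjusted p under 0.05, whereas DESeq2 called 337 genes, 207 higher in tip and 130 higher in trunk. A single trunk plate gives no spread of its own and was assumed to vary like the others. The median log2 difference over all genes was 0.00. The median differences were 0.17 for the 18 collagens, -0.02 for the 30 matrix glycoproteins and proteoglycans, 0.36 for the 16 collagen-processing enzymes and 0.23 for the 14 matrix proteases and inhibitors. At an unadjusted p under 0.05, 0, 1, 0 and 4 genes of these lists differed, the 1 being higher in trunk and the 4 higher in tip. Col6a1 differed by 0.42, Dcn by -0.40, Postn by -0.14, Lox by 0.01 and Prrx1 by 0.00 (log2 of tip over trunk), and none passed.

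The 10 genes of smallest p with at least 20 CPM are given as values that did not pass. Slitrk5, a neuronal membrane protein, was 72.5 and 48.5 CPM in tip 1 and tip 2 and 3.06 CPM in trunk 2, and Htra1, a secreted serine protease, was 308 and 336 CPM in the tips and 61.9 CPM in trunk 2. Among cells, which are not replicates, Htra1 exceeded 10 CPM in 20 of 25, 15 of 19 and 10 of 26 members. Their log2 differences were 4.32 and 2.41, and their adjusted p-values 0.886 and 0.918 in edgeR. Lsp1 was 111 and 140 CPM in the tips and 12.2 CPM in trunk 2, Sco1 was 50.3, 54.6 and 2.51 CPM, and Ntm was 37.1, 15.302 and 0.358 CPM. Higher in trunk 2 were Med13l (36.4, 28.8 and 155 CPM), Ctns (2.39, 0.316 and 57.6 CPM) and Ss18l1 (0.544, 0.126 and 29.9 CPM). Nnat, an imprinted gene, was 42.2, 48.2 and 563 CPM, with 88.1% of the trunk reads in 1 cell. Iapp, the islet amyloid peptide, was 18.6, 2.09 and 1642 CPM, and the insulin-rich cell held 95.5% of its E15.25 reads. Adjusted p-values of these 8 were 0.918 in edgeR.

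Among themselves the 70 cells spread widely in the genes of mural and fibroblast-like states. Pdgfrb exceeded 10 CPM in 60, Des (desmin) in 59, Rgs5 in 58, Abcc9 in 57 and Kcnj8 in 48. The last 2 encode the subunits of a potassium channel known from pericytes. Pdgfra exceeded 10 CPM in 49, Igf1 in 51, Ogn in 45 and Tcf21, a fibroblast factor, in 49. Cells with over 10 CPM of both Pdgfra and Pdgfrb numbered 41, with 8 showing Pdgfra alone, 19 Pdgfrb alone and 2 neither. Igf1 was also read widely outside the class, over 100 CPM in many of the other kept cells of each plate. The highest values there were 623, 828 and 890 CPM in tip 1, tip 2 and trunk 2. Epcam in the cells with these highest values was 849, 2174 and 1197 CPM.

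Acta2 and Mgp were uneven from cell to cell. The median and highest cells for Acta2 were 5.84 and 962 CPM in tip 1, 21.5 and 10748 CPM in tip 2 and 27.3 and 8649 CPM in trunk 2. A single cell held 30.7%, 91.9% and 49.3% of the members' Acta2 reads in the 3 plates, so the plate values of Acta2 largely described 1 cell in tip 2. Cells with over 100 CPM numbered 7, 7 and 11 (28%, 36.8% and 42.3%). In E13.25 plates 1 to 4 they numbered 12, 19, 5 and 5 (27.3%, 35.8%, 26.3% and 25%), so the shares overlapped between ages. Mgp exceeded 10 CPM in 2, 5 and 10 members, and 1 cell held 80.8%, 94.9% and 74.96% of its reads. The cell with most Acta2 in tip 2 also had most Mgp, 4686 CPM. Actg2, Cnn1 and Myh11, genes of mature smooth muscle, exceeded 10 CPM in 8, 1 and 1 members.

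**Figure D5:**
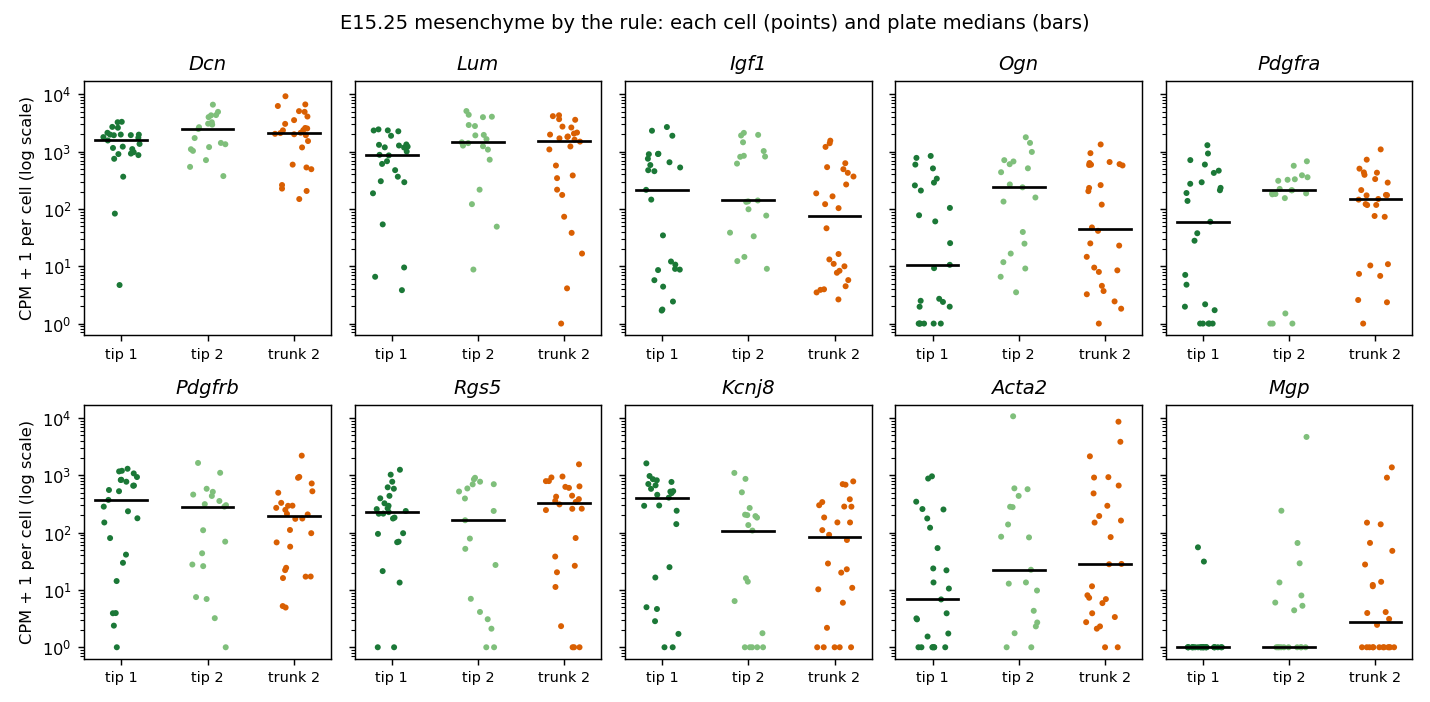
Each point is a member cell, by plate (tip 1, n = 25; tip 2, n = 19; trunk 2, n = 26), with CPM + 1 on a log axis and bars at the plate medians, for 10 genes. Dcn and Lum are high in nearly all cells, and Pdgfra, Rgs5 and Kcnj8 range from 0 to high values in each plate. Igf1, Ogn and Pdgfrb spread widely in each plate. Acta2 exceeds 100 CPM in 7, 7 and 11 cells of tip 1, tip 2 and trunk 2, and Mgp is high in few cells.

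Rank correlations within plates described which genes varied together, over 25, 19 and 26 cells in tip 1, tip 2 and trunk 2. Cells of a plate share their library batch and differ in depth, and no p is given. The pairs named are some of the most extreme of 190 among 20 genes and were chosen after their values were seen. Igf1 and Ogn had Spearman's rho of 0.39, 0.81 and 0.61, and Lum and Dcn of 0.47, 0.70 and 0.57. Pdgfrb and Rgs5 had 0.42, 0.67 and 0.36. In the opposite direction, Pdgfrb and Igf1 had -0.63, -0.49 and -0.46, Acta2 and Igf1 -0.30, -0.65 and -0.31, and Pdgfrb and Dcn -0.43, -0.44 and -0.37. These signs were alike in the 3 plates. In the E13.25 plates the mean rho was 0.23 for Igf1 with Ogn, 0.17 for Pdgfrb with Rgs5, -0.27 for Pdgfrb with Igf1 and 0.16 for Pdgfrb with Dcn. By cells, 41 members had over 10 CPM of both Pdgfrb and Igf1, 19 of Pdgfrb alone, 10 of Igf1 alone and 0 of neither.

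The 10 genes whose ranks were most like those of Acta2, among 7280 genes over 10 CPM in at least 25% of members, had mean rho values between 0.41 and 0.51. Among them were Smn1, Gabpb1, Fzr1, Ripk3, Tpm2, Msn, Tmem123, Stard13 and Adora2b. Only Tpm2, a tropomyosin, belonged to the contractile list. In E13.25 mesenchyme the mean rho was 0.10 for Smn1 and 0.17 for Tpm2.

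Members were spread over the wells of each plate. In groups of 12 consecutive wells their number ran from 2 to 7 in tip 1, from 1 to 6 in tip 2 and from 1 to 5 in trunk 2.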

How the data were processed

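Full-length cDNA of single sorted cells was sequenced, and the authors deposited raw read counts per gene and cell, with no normalization. Per the submitters' processing notes they used GSNAP (a release of 2015) and HTSeq 0.5.3p3 on mm10. The annotation release, the strand setting and how multi-mapping reads were treated are not given in the sources used here. The 92 ERCC rows and 5 rows without a gene were left out of library sizes. There were no molecular identifiers, so intervals and floors cover counting error only.

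Counts of members were summed per plate (at least 5 members) and tested in R 4.3.3 by the quasi-likelihood F test of edgeR 4.0.16, after filterByExpr and TMM scaling, with Benjamini-Hochberg adjustment over all genes tested. Tip against trunk used a fit of 3 groups. The difference of age changes used sums of members and of other kept cells with a term per plate. Members against other cells were described without a test, as ratios after adding 5 CPM. Cells with over 10 CPM of a gene were counted. Shares have exact 95% Clopper-Pearson intervals. Wells held 1 sorted cell each and no doublet caller was used. Other tools were python 3.11.15, pandas 2.3.3, scipy 1.17.1 and matplotlib 3.10.9, and the fits were tested on simulated data.

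The members and the 26 gene lists were chosen with earlier results of these data known. Beside members of those lists, the text names up to 12 genes per direction of age with the largest change (past the threshold, ages not overlapping, at least 20 CPM), the 10 tip or trunk genes of smallest p, the 10 largest differences of age changes, the 15 genes highest over other cells and the 10 most like Acta2. Further genes among those past the threshold were named after their values were seen. Alternatives were DESeq2 1.42.0, no filter on low counts, RLE scaling, cells scaled to one total, at least 10 members per plate, members without the 5% with most genes or with at least 10 times more Col3a1 than Epcam, a term for unaligned shares under 40%, E15.25 plates alone, and each plate left out. Some single genes are not reported here.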

Additional observations from a re-analysis of the deposited data

Results flagged for a closer look

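In 4 of 55 genes looked at, 1 of the 4 E13.25 plates lay far from the other 3, where chance at about 1 in 20 would give 2.75. Acta2 was 467 CPM in the mesenchyme of E13.25 plate 2 and 231 to 263 CPM in the other 3 plates. Wnt5a was 179 CPM in E13.25 plate 3 and 283 to 304 CPM in the others. St18 was 0.197 CPM in E13.25 plate 3 and 0.0536 to 0.068 CPM in the others, and Amy2b was 0.107 CPM in E13.25 plate 4 and 0 in the others, both at levels of few reads.

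The age change differed between mesenchyme and the other kept cells in 10 named genes, by the test of the difference in edgeR. The log2 change was larger in mesenchyme by 7.86 for St6galnac2, 4.93 for Ogn, 4.88 for Spint1, 4.82 for Foxa2, 4.67 for Akr1c19, 4.22 for Ttr, 3.94 for Mfap4, 3.92 for Krt8 and 3.87 for Esrp1. For Hmga2 it was smaller, by -4.50. Ogn and Mfap4 stood above the other cells at E15.25 and the remaining 8 below them, Hmga2 among these. All 15 tested genes of the epithelial list had a difference above 0, from low levels in the members at E13.25.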

How the results depend on the processing

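The comparison of ages called 109 genes. DESeq2 called 1433 (743 higher, 690 lower), 108 of them shared with edgeR, and cells scaled to one total gave 338 (230 higher, 108 lower). A term for the unaligned share left 0. Without one plate the count ran from 3 to 60. With no filter, RLE scaling, at least 10 members per plate, without the 5% of cells with most genes, and with at least 10 times more Col3a1 than Epcam it was 143, 163, 109, 117 and 131. Tip against trunk gave 0 genes, 337 with DESeq2, and 0 to 2 without one plate (2 without tip 1). The difference of age changes gave 32 genes, 1435 with DESeq2, 136 with no filter, and 0 to 53 without one plate. The causes of these differences were not tested. The share of members was 26.8% and ran from 25.3 to 28.4% in 5 other selections.

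The limit of at least 10 members per plate left out no plate and could change nothing. Of 544 alternative values under the other settings for the 39 genes named by the age comparison, 324 kept direction and threshold, 220 kept the direction and no longer passed, and 0 reversed. No value reversed in the other 2 comparisons either. Few plates and few cells per plate limit the precision: genes read in few cells are set by 1 or 2 of them.

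No paired analysis was possible because no label links a plate of E13.25 to one of E15.25, and tip and trunk share bud 2 alone.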
